A study of Mus musculus with 8 samples.

Results

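Clotting genes were followed in RNA from macrophages sorted out of mouse liver metastases. The set holds 10 of the 42649 genes in the deposited table. Of these, 7 encode plasma proteins made mainly by hepatocytes: the fibrinogen chains Fga, Fgb and Fgg, vitronectin (Vtn), prothrombin (F2), plasminogen (Plg) and antithrombin (Serpinc1). The other 3, F7, F10 and F13a1, encode factor VII, factor X and the A subunit of factor XIII and are also known to be expressed by macrophages; the liver makes factors VII and X as well. The genes were chosen with their diet differences in these same libraries already known. Their values between the diets are therefore a description and no p is given for any of them. Counts of them past a threshold stand once, beside the share of all genes past it, and nothing is supported by them.

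All mice were C57BL/6, and diet was the only difference between the groups that the labels name. Of the 8 mice, 4 ate a control diet (CD) with 10% of its energy from fat and 4 ate a high-fat diet (HFD) with 60% of its energy from fat, for 6 weeks. Cells of MC38, a mouse colon carcinoma line, were then placed in the spleen, from where they seed the liver, and the metastases were taken 19 days later. Cells positive for CD45, CD11b and F4/80 were sorted and sequenced as 1 bulk library per mouse, from PCR-amplified full-length cDNA. The labels used here give no sex or age.

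Clotting starts when factor VII binds tissue factor on a cell surface and activates factor X, which turns prothrombin into thrombin. Thrombin cuts fibrinogen into fibrin, factor XIII cross-links the fibrin, antithrombin blocks thrombin and factor X, and plasminogen, once activated, dissolves the clot. Vitronectin, an adhesive protein of plasma and matrix, binds integrins. Fibrinogen is an acute-phase protein whose transcription in hepatocytes is raised by interleukin signals, and macrophages bind fibrin and fibrinogen through the integrin of Itgam and Itgb2.

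The fibrinogen genes lie side by side, and the stretches before their starts are shown because the chains are made side by side and joined in 1 protein. RefSeq promoter windows on build GRCm38.p6 were found for 9 of the 10 genes, and each window printed here holds the 250 bases before the RefSeq start, 5′ to 3′ on the gene's strand. Capitals mark matches to the letters of 6 motifs searched on both strands. Vtn stands beside them as a liver gene on another chromosome, and F10 as the factor with the highest level per length in these libraries.
Fgg, chr3:83007474-83007723, plus strand: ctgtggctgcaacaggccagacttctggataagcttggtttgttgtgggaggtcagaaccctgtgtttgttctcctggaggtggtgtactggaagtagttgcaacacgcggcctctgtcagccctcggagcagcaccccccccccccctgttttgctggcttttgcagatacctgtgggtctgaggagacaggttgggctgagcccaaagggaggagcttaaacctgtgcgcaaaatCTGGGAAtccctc
Fga, chr3:83025903-83026152, plus strand: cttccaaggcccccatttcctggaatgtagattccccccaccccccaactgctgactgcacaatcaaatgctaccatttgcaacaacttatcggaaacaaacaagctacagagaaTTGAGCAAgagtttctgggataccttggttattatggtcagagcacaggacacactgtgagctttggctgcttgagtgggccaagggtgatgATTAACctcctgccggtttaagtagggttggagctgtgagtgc
Fgb, chr3:83049864-83050113, minus strand: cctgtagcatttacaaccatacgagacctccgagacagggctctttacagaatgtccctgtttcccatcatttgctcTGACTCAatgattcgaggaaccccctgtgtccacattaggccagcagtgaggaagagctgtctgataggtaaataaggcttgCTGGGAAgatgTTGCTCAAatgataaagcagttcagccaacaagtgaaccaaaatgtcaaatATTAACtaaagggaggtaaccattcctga
Vtn, chr11:78498870-78499119, plus strand: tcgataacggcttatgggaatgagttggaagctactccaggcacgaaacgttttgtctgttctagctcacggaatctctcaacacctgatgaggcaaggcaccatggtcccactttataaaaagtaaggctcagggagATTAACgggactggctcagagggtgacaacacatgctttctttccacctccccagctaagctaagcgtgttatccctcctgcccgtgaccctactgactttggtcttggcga
F10, chr8:13037058-13037307, plus strand: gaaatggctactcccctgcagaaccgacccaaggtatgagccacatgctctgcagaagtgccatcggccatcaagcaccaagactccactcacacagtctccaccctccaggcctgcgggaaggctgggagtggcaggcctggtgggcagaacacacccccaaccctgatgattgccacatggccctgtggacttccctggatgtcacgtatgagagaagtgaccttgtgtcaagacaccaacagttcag

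The HNF1 half-site GTTAAT was found in the windows of Fga, Fgb and Vtn, as its reverse complement, and in 6.43% of all 32851 RefSeq mouse promoters of the same length. The C/EBP letters TTGCNNAA were found in Fga and Fgb and in 9.56% of all promoters, and the IL-6 response element CTGGGAA in Fgg and Fgb and in 9.10%. Fgb, which lies on the opposite strand to Fga and Fgg, held 4 of the 6 motifs, at 29 bases (HNF1), 80 bases (C/EBP), 91 bases (IL-6 response element) and 173 bases (AP-1, TGANTCA, 6.75% of all promoters) before its start. The AP-1 letters were also found in F2. HNF4 (CAAAGTCCA, 0.384% of all promoters) and PU.1 (GAGGAAGT, 2.44%) were found in none of the 10 windows of the set, where F13a1 has 2 starts; no motif matched in F10. No matches overlapped in the windows printed. These are matches of letters in a window and do not say whether a factor binds there.

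Of the 4 CD libraries, replicates 3 and 4 stood apart from the other 6 before any diet comparison. They lay at 130.4 and 134.2 on the first principal component, which held 43.8% of the variance, against -88.35 to -8.881 in the other libraries. Their summed level of 10 neutrophil markers was 107000 and 109000 CPM (read counts scaled to depth with edgeR's TMM factors), against 320 to 7220 CPM elsewhere, and exceeded that of 10 macrophage markers, which was 30800 and 25700 CPM, Lyz2, also a neutrophil gene, making up 27700 and 22700 CPM of it. Adgre1, which encodes the F4/80 of the sort, stood at 100 and 93.4 CPM in them and at 198 to 682 CPM in the other 6. The other sort markers were not low there. Ptprc, which encodes CD45, stood at 163 and 136 CPM in them, against 45.6 to 101 CPM in the other 6. Itgam, which encodes CD11b, stood at 110 and 141 CPM, against 40.3 to 142 CPM. The 7 classical monocyte markers summed to 24300 and 20700 CPM there and to 889 to 4770 CPM in the other 6. The macrophage markers were all detected in every library, at 8600 to 87700 CPM summed, so macrophage transcripts were present in each. In CD replicates 3 and 4 that sum was mostly Lyz2, so it does not measure their macrophage RNA. The label macrophages does not describe all the RNA of CD replicates 3 and 4. Those libraries also had a count in 34495 and 33449 genes, against 21571 to 24556 elsewhere. The 1412 olfactory and vomeronasal receptor genes, known from sensory neurons, summed to 394 and 387 CPM in them, against 20.8 to 60.3 CPM in the other 6. Total counts ran from 37180157 to 55717378, and the TMM factor of HFD replicate 1, 2.016, was the highest of the 8. The HFD libraries were not alike either. Summed macrophage markers were lowest in HFD replicate 1, at 8600 CPM, against 29500 to 87700 CPM in the other HFD libraries. Adgre1 stood at 617 CPM there. The 7 stellate cell and fibroblast markers summed to 672, 665, 199 and 135 CPM in HFD replicates 1 to 4. In CD replicates 1 to 4 they summed to 273, 258, 35.7 and 31.6 CPM.

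Over all 17367 genes tested, 0.00576% passed an adjusted p of 0.05 in edgeR's quasi-likelihood test with diet as the only term, which is 1 gene (Ass1, named here because it was the only one). All 10 clotting genes passed the count filter and 0 of 10 passed that threshold. At an unadjusted p under 0.05 the count was 7 of 10 lower in HFD, against 7.56% of all genes, and 0 of 10 higher, against 5.31%. DESeq2 called 5 of 10 lower, against 2.87% of all genes. All 4 HFD values lay below all 4 CD values for 6 of 10, against 4.80% of all genes. The opposite order was seen for 0 of 10, against 3.57%. Of the 10017 genes with a mean of 0.4 to 10 CPM, 4.61% had all HFD values below all CD values. That range holds the set except F10 and F13a1, whose means were 156 and 153 CPM, and F10 is among the 6. The genes were picked from this contrast, so a high share of them was fixed by the choice and nothing is read from these counts.

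Per transcript length, the set spanned a wide range of levels. In FPKM (fragments per kilobase of transcript, scaled by depth), F10 was the highest of the 10 genes in every library, at a mean of 43.4 over all 8 and a range of 14.8 to 102. F13a1 was second in every library, at 18.8 FPKM (6.29 to 34.2). F7 at 2.83, Fgb at 1.96 and Fgg at 1.64 mean FPKM exchanged places between the third and the fifth rank, so their order did not exceed the spread between libraries. Vtn followed at 0.906 and Fga at 0.654 mean FPKM, with overlapping ranges. F2 at 0.193, Serpinc1 at 0.181 and Plg at 0.0891 mean FPKM closed the list and also overlapped. In every library the macrophage-expressed F10 and F13a1 thus lay above each hepatocyte-made gene. In bulk libraries fewer cells of a type and less RNA per cell cannot be told apart, and neither can RNA of the sorted cells and RNA carried along from hepatocytes.

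**Figure D1:**
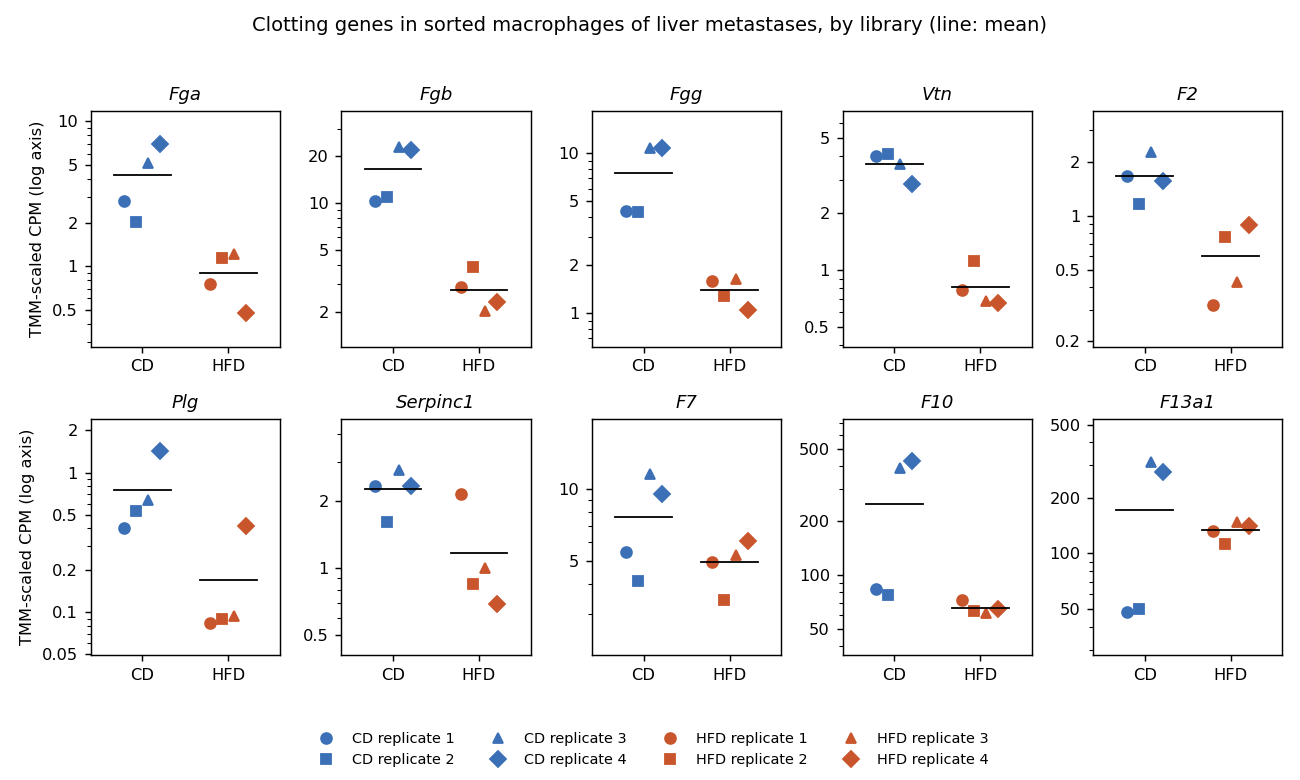
Level of each of the 10 clotting genes in every library (y axes, TMM-scaled CPM on log axes with a separate range per gene; x axes, diet), with 1 point per mouse, its shape giving the replicate number, and a line at the mean of 4. The fibrinogen genes, Vtn and F2 have all HFD points below all CD points, and F10 and F13a1 are highest in CD replicates 3 and 4, at 391 and 431 CPM and at 315 and 275 CPM.

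Fgb encodes the beta chain of fibrinogen. In CD replicates 1 to 4 it stood at 10.3, 10.9, 22.9 and 21.8 CPM, and in HFD replicates 1 to 4 at 2.89, 3.88, 2.02 and 2.30 CPM. The groups did not overlap, and CD replicates 3 and 4 were the highest. The means were 16.5 ± 6.83 CPM in CD and 2.77 ± 0.825 CPM in HFD (SD, n = 4 each), a 5.95-fold lower mean in HFD. These levels came from 561 to 691 counts per CD library and 83 to 274 per HFD library.

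Fgg encodes the gamma chain, which with the other chains forms the plasma dimer. Its levels were 4.38, 4.30, 10.8 and 10.8 CPM in CD and 1.58, 1.29, 1.64 and 1.05 CPM in HFD, without overlap and with CD replicates 3 and 4 again the highest. The alpha chain, Fga, which carries one of the sites that thrombin cuts, stood at 2.82, 2.03, 5.14 and 6.95 CPM in CD and at 0.748, 1.13, 1.21 and 0.471 CPM in HFD. As a log2 fold change, HFD minus CD, edgeR gave -2.57 ± 0.37 for Fgb, -2.44 ± 0.40 for Fgg and -2.24 ± 0.48 for Fga (SE). With libraries scaled by their totals in place of TMM, it was nearer to zero, at -1.97, -1.82 and -1.68 in the same order. Summed, the chains came to 17.5, 17.2, 38.9 and 39.6 CPM in CD and to 5.22, 6.31, 4.87 and 3.82 CPM in HFD.

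The proportions of the chains overlapped between the diets. Fgb FPKM over Fgg FPKM was 1.11 to 1.40 in CD and 0.692 to 1.67 in HFD, and Fga over Fgg was 0.330 to 0.447 in CD and 0.312 to 0.614 in HFD, so both ratios overlapped. Of 11075 genes with a mean of at least 1 CPM, Fgg had the profile most like that of Fgb over the 8 libraries, by a root mean square difference of 0.35 on the log2 scale after centring. Areg, which encodes the growth factor amphiregulin, followed at 0.38 and Ifi205, an interferon-inducible gene, at 0.39.

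Leaving out CD replicates 3 and 4 brought the fibrinogen differences nearer to zero without changing their sign. The log2 fold change was then -1.93 for Fgb, -1.64 for Fgg and -1.45 for Fga. Among replicates 1 and 2 alone it was -1.64, -1.58 and -1.37 in the same order, and among replicates 3 and 4 alone it was -3.29, -2.91 and -2.74. CD replicates 3 and 4 also differ in their neutrophil and monocyte transcripts and in their level of receptor genes of smell, given above, and the part of either in the gap between these values was not tested.

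**Figure D2:**
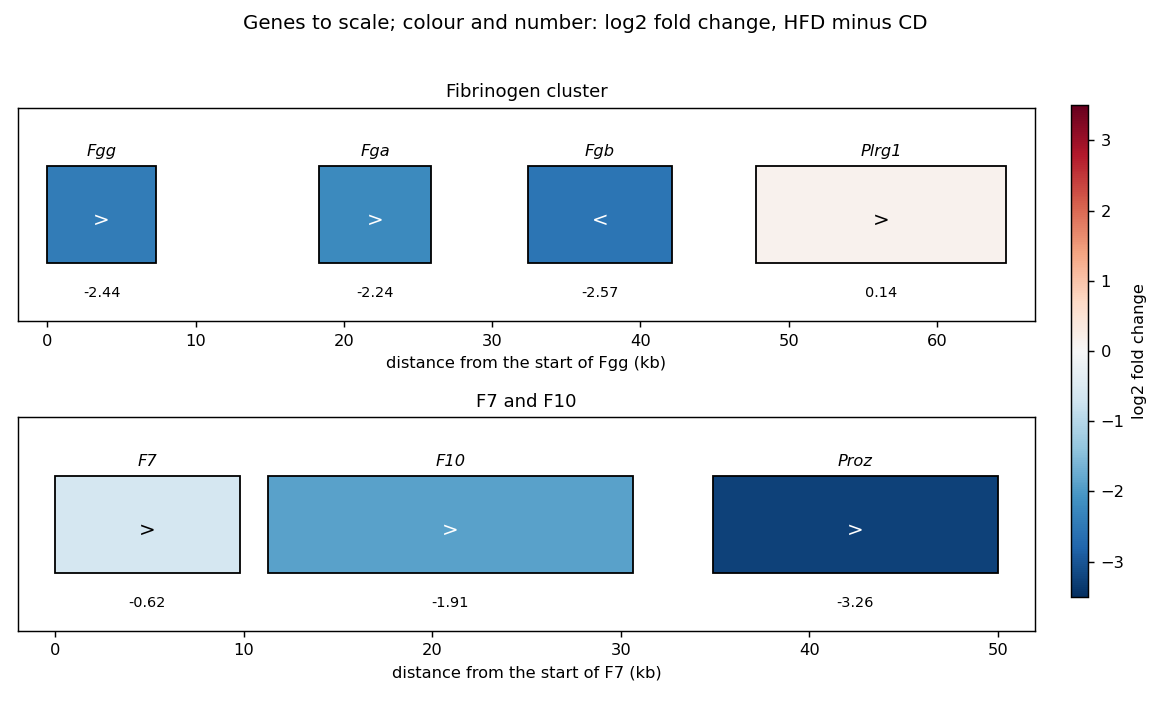
Gene maps of the fibrinogen cluster and of F7 with F10, drawn to scale (x axes, distance in kb from the start of Fgg or F7; arrowheads, direction of transcription; colour and printed number, log2 fold change, HFD minus CD). The fibrinogen genes stand at -2.44, -2.24 and -2.57, while the neighbour Plrg1 stands at 0.14.

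The neighbours of the fibrinogen cluster had overlapping diets. Fgg (chr3:83007724-83015049), Fga (chr3:83026076-83033627) and Fgb (chr3:83040141-83049863) lie in this order on GRCm38. Plrg1, which encodes a splicing factor, starts 5659 bases beyond Fgb and stood at 7.64 to 13.7 CPM in CD and 8.37 to 13.9 CPM in HFD, with a log2 fold change of 0.14 ± 0.28 (edgeR adjusted p = 0.864). On the other side the nearest tested gene, Lrat, lies 103751 bases away, stood at 0.704 CPM or less in every library and gave -0.69 ± 1.13 (edgeR adjusted p = 0.822). Lrat encodes the enzyme that esterifies vitamin A.

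Vitronectin differed from fibrinogen in that CD replicates 3 and 4 were not its highest. Vtn (chr11:78499091-78502324, plus strand) stood at 4.03, 4.09, 3.62 and 2.84 CPM in CD and at 0.780, 1.12, 0.688 and 0.665 CPM in HFD. The groups did not overlap, and CD replicate 4 was the lowest CD library. The means were 3.64 ± 0.578 and 0.812 ± 0.208 CPM (SD, n = 4 each), and the log2 fold change was -2.16 ± 0.33. It was -2.32 without CD replicates 3 and 4, -2.10 among replicates 1 and 2 and -2.16 among replicates 3 and 4, so it was as large without those libraries.

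Prothrombin, F2 (chr2:91625320-91636414, minus strand), was counted 18 to 91 times per library. It stood at 1.67, 1.17, 2.26 and 1.56 CPM in CD and at 0.316, 0.759, 0.427 and 0.887 CPM in HFD, without overlap. Its log2 fold change was -1.48 ± 0.48, and -1.26 without CD replicates 3 and 4. Plasminogen, Plg (chr17:12378608-12419385, plus strand), was the rarest of the set, with 4 to 39 counts per library. Its levels were 0.403, 0.533, 0.631 and 1.42 CPM in CD and 0.0843, 0.0893, 0.0949 and 0.416 CPM in HFD. On the TMM scale HFD replicate 4 reached into the CD range. The log2 fold change was -2.14 ± 0.82, and -1.49 without CD replicates 3 and 4. Scaled by library totals the groups did not overlap, at 0.429 to 1.05 CPM in CD and 0.0889 to 0.299 CPM in HFD. At so few counts the counting error alone is a large part of each Plg value. Plg also shares its locus with Slc22a3 on the opposite strand, which had at most 33 counts, and reads of the pair cannot be told apart without strand.

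Antithrombin, Serpinc1 (chr1:160978585-161002463, plus strand), had overlapping groups. It stood at 2.33, 1.62, 2.75 and 2.33 CPM in CD and at 2.16, 0.848, 0.997 and 0.693 CPM in HFD. On the TMM scale HFD replicate 1 lay within the CD range, and the other 3 HFD libraries lay below it. Scaled by library totals, HFD replicate 1 stood at 4.35 CPM, above all CD libraries at 1.72 to 2.48 CPM. The log2 fold change was -0.93 ± 0.44, -0.74 without CD replicates 3 and 4 and -1.40 without HFD replicate 1. It was -0.22 when libraries were scaled by their totals in place of TMM. Serpinc1 overlaps the predicted genes Gm37729 and Gm37072, which had at most 40 and 26 counts.

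Together the 7 liver-made genes summed to 25.9, 24.6, 48.1 and 47.7 CPM in CD and to 8.56, 9.12, 7.07 and 6.48 CPM in HFD. Their median log2 fold change was -2.16, beside 0.01 for all genes tested, and it was -1.49 without CD replicates 3 and 4.

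Albumin, the most abundant hepatocyte protein of plasma, gave another scale for the liver-made genes. Alb stood at 6.75, 6.36, 20.7 and 20.0 CPM in CD and at 3.85, 5.92, 13.1 and 18.0 CPM in HFD. The groups overlapped, with replicates 3 and 4 the highest in both diets, and its log2 fold change was -0.40 ± 0.56 (edgeR adjusted p = 0.783), or 0.62 without CD replicates 3 and 4. Vtn and Hpx did not share the high values of Alb in CD replicates 3 and 4, so a ratio to Alb is a ratio between transcripts and not to liver content. Fgb FPKM over Alb FPKM was 0.936, 1.05, 0.681 and 0.670 in CD and 0.460, 0.403, 0.0941 and 0.0780 in HFD. The same ratio did not overlap between the diets for Fga, Fgg and Plg, and it overlapped for Vtn, F2 and Serpinc1. For Vtn it was 0.158 to 0.739 in CD and 0.0383 to 0.230 in HFD, with replicates 3 and 4 the lowest in both diets.

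**Figure D3:**
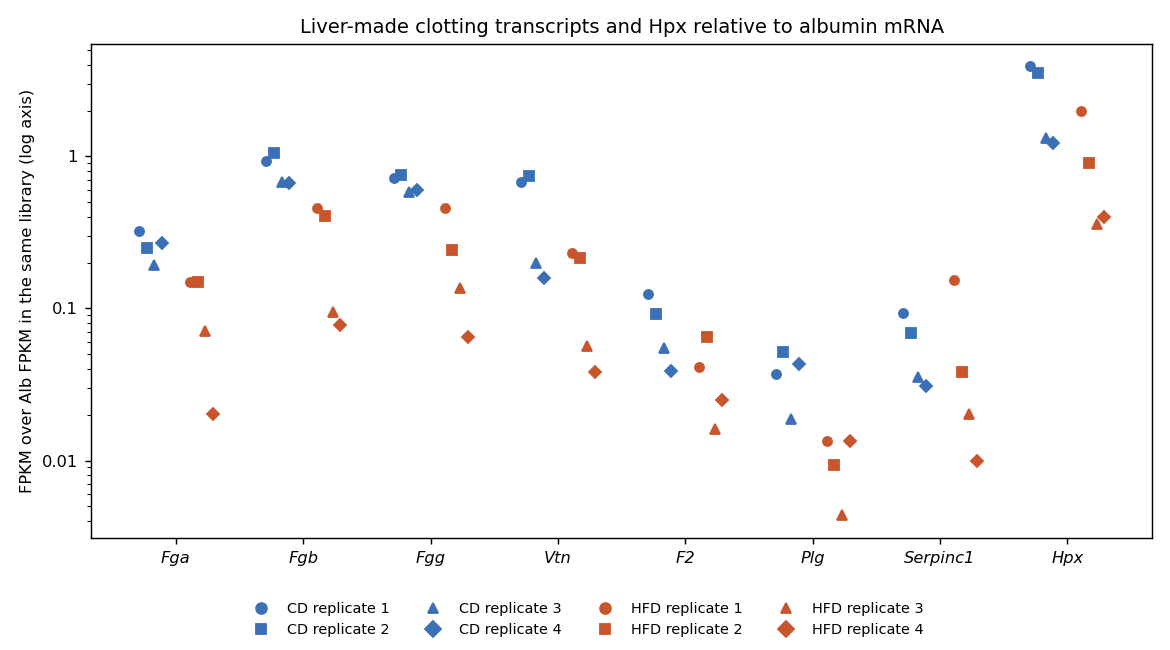
FPKM of each liver-made clotting gene and of Hpx, divided by Alb FPKM of the same library (y axis, ratio on a log axis; 1 point per mouse, colour for diet and shape for replicate number). For Fgb the CD points lie at 0.670 to 1.05 and the HFD points at 0.0780 to 0.460; for Vtn, F2, Serpinc1 and Hpx the diets overlap.

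Other transcripts of the liver did not all share the values of the clotting genes. Of 23 tested hepatocyte genes outside clotting, 20 had a log2 fold change below 0 and 3 above, with a median of -1.14 (0.01 for all genes tested) and of -0.54 without CD replicates 3 and 4. At an unadjusted p under 0.05 in edgeR 10 were lower and 1 higher in HFD (7.56% and 5.31% of all genes), and 0 passed the adjusted threshold. This list and those that follow were also chosen with the results known. Mup20, a major urinary protein, stood at 3.56 to 6.84 CPM in CD and 0.285 to 1.27 CPM in HFD (log2 fold change -3.07 ± 0.53, edgeR adjusted p = 0.212). Trf, transferrin, which macrophages also express, went the other way, at 110 to 143 CPM in CD and 263 to 457 CPM in HFD (1.56 ± 0.31, edgeR adjusted p = 0.219). Summed, the hepatocyte list stood at 221 to 259 CPM in CD and 300 to 537 CPM in HFD, but Trf alone set that direction. Without Trf the sum was 79.0 to 130 CPM in CD and 36.7 to 79.9 CPM in HFD, the reverse order, with HFD replicate 4 reaching the lowest CD library.

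Acute-phase proteins outside clotting had 11 of 12 tested log2 fold changes below 0, with a median of -2.05, and of -1.57 without CD replicates 3 and 4. Of the 12, 8 were lower at an unadjusted p under 0.05 in edgeR (7.56% of all genes), and 0 passed the adjusted threshold. Hpx, hemopexin, which scavenges heme, stood at 16.9, 14.3, 17.6 and 15.7 CPM in CD and at 4.92, 3.42, 3.04 and 4.63 CPM in HFD. Its groups did not overlap, and CD replicates 3 and 4 did not stand apart (log2 fold change -2.01 ± 0.25, edgeR adjusted p = 0.0883). Saa2, a serum amyloid A gene, stood at 1.17, 1.27, 8.89 and 8.48 CPM in CD, at 0.142 CPM in HFD replicate 3 and at 0 in the other HFD libraries (edgeR adjusted p = 0.213). Fgb FPKM over Hpx FPKM was 0.240 to 0.548 in CD and 0.195 to 0.447 in HFD, so it overlapped.

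The macrophage-expressed clotting factors differed from one another in their patterns. Factor X, F10 (chr8:13037308-13056676, plus strand), stood at 83.7, 77.1, 391 and 431 CPM in CD and at 72.2, 63.3, 61.0 and 64.9 CPM in HFD. CD replicates 3 and 4 were far above the other 6 libraries, which lay within 61.0 to 83.7 CPM. The means were 246 ± 192 and 65.4 ± 4.86 CPM (SD, n = 4 each), and the log2 fold change was -1.91 ± 0.57. It was -0.30 without CD replicates 3 and 4, -0.24 among replicates 1 and 2 and -2.62 among replicates 3 and 4. The groups, apart on the TMM scale, overlapped when scaled by library totals, where HFD replicate 1 stood at 145 CPM and the CD libraries at 86.2 to 319 CPM.

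Factor VII, F7 (chr8:13026034-13035809, plus strand), ends just before F10 begins on the same strand. Its levels were 5.43, 4.14, 11.5 and 9.53 CPM in CD and 4.97, 3.45, 5.32 and 6.07 CPM in HFD. The groups overlapped, with CD replicates 3 and 4 the highest of the 8. The log2 fold change was -0.62 ± 0.36, and 0.04 without CD replicates 3 and 4. F10 FPKM over F7 FPKM was 10.5, 12.7, 23.2 and 30.8 in CD and 9.90, 12.5, 7.81 and 7.29 in HFD. The ratio in CD replicates 3 and 4 was above that in the other 6 libraries, so the neighbouring genes did not move in proportion there.

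On either side of the F7 and F10 pair, the nearest tested genes also had values below 0. Mcf2l lies 5129 bases before F7 and gave -1.37 ± 0.45 (edgeR adjusted p = 0.287). Proz, protein Z, a vitamin K-dependent plasma protein that helps to inhibit factor X, lies 4238 bases after F10. It stood at 0.679, 0.378, 3.88 and 1.20 CPM in CD and at 0.169, 0.342, 0.0949 and 0 CPM in HFD, with a log2 fold change of -3.26 ± 1.03 (edgeR adjusted p = 0.274), or -1.75 without CD replicates 3 and 4.

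The A subunit of factor XIII, F13a1 (chr13:36867178-37050244, minus strand), is a transglutaminase of monocytes, macrophages and platelets. It stood at 47.8, 49.6, 315 and 275 CPM in CD and at 133, 112, 148 and 141 CPM in HFD. All HFD values lay between those of CD replicates 1 and 2 and those of CD replicates 3 and 4. The log2 fold change was -0.36 ± 0.60 over all libraries and 1.45 without CD replicates 3 and 4, and it was 0.12 without CD replicate 3 alone. Among replicates 1 and 2 it was 1.34, and among replicates 3 and 4 it was -0.95, so the sign of F13a1 depended on which libraries were compared. It was 0.29 when scaled by library totals and 0.15 with a replicate block. F13a1 overlaps the predicted antisense gene Gm49144, which had at most 29 counts.

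**Figure D4:**
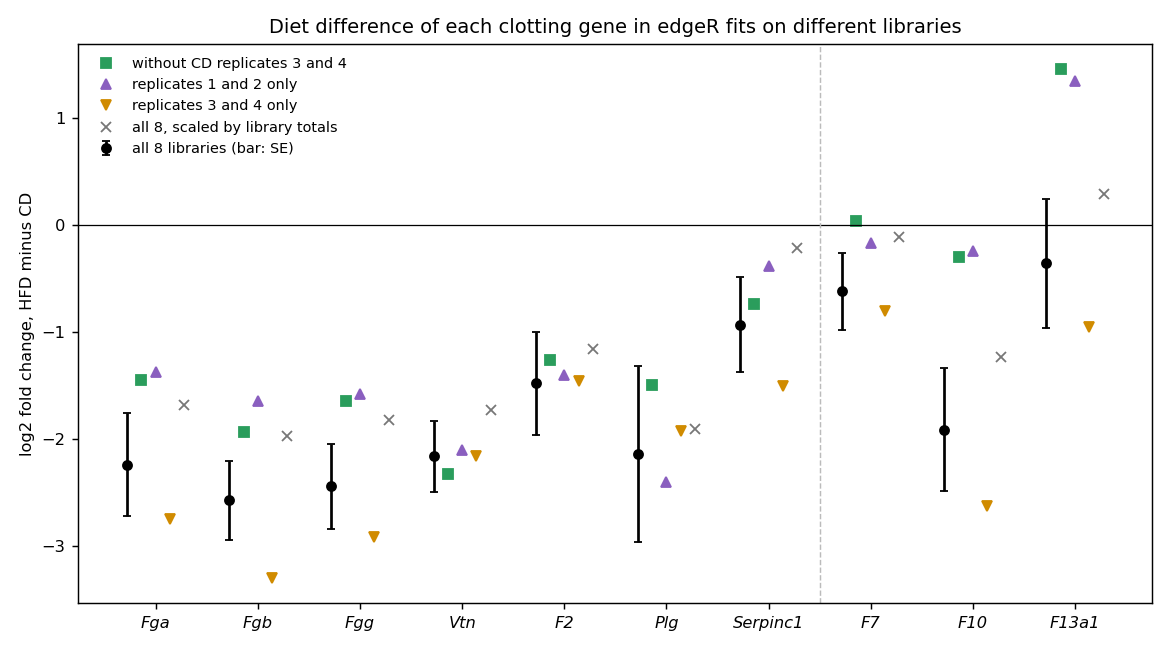
Log2 fold change, HFD minus CD, of each clotting gene (y axis) from edgeR on all 8 libraries (black, bar for the SE), without CD replicates 3 and 4, on replicates 1 and 2, on replicates 3 and 4, and on all 8 scaled by library totals; the dashed line parts the liver-made from the macrophage-expressed genes. Vtn stays between -2.32 and -1.73, F10 runs from -2.62 to -0.24 and F13a1 from -0.95 to 1.45.

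The genes whose profiles were most like those of the macrophage-expressed factors differed for each. For F10 they were Antxr2, an anthrax toxin receptor (root mean square difference 0.16 on the log2 scale over 8 libraries), Smox, spermine oxidase (0.18), and Daxx (0.18). For F7 they were Hmox2, heme oxygenase 2 (0.10), Adssl1 (0.15) and Gng12, a G protein subunit (0.15). For F13a1 they were Ngp (0.20), a granule protein of neutrophil precursors, Hinfp (0.31) and Mtm1 (0.31). F7 and F10, though adjacent, differed by 0.68 and F10 and F13a1 by 0.83 on the same measure, against 0.35 between Fgb and Fgg. Within the set, F10 was nearest to the liver-made Fgg (0.58) and Fga (0.64), with the other liver-made genes at 0.73 to 1.04. F7 was nearest to the liver-made Serpinc1 (0.60), and F13a1 to F7 (0.64). The profiles thus did not part the macrophage-expressed from the liver-made genes.

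Platelet markers, which bear on F13a1 and on fibrinogen binding, were mixed. Of 9 tested, 7 had a log2 fold change below 0 and 2 above, with a median of -1.06, and of -0.23 without CD replicates 3 and 4. At an unadjusted p under 0.05 in edgeR, 2 were lower and 1 higher in HFD (7.56% and 5.31% of all genes). Pf4, a chemokine of platelets and some macrophages, stood at 221, 199, 130 and 129 CPM in CD and at 180, 339, 893 and 1200 CPM in HFD (1.94 ± 0.58, edgeR adjusted p = 0.264). Gp9, a subunit of the platelet receptor for von Willebrand factor, stood at 0.440 to 1.76 CPM in CD and 0.179 to 0.527 CPM in HFD. Kupffer cell markers had 7 of 8 log2 fold changes above 0 (median 1.26), 5 of them at an unadjusted p under 0.05 in edgeR (5.31% of all genes). The median was 0.66 without CD replicates 3 and 4 and 0.13 among replicates 1 and 2. Their summed level was 106 to 228 CPM in CD, lowest in replicates 3 and 4, and 270 to 581 CPM in HFD. The part of these cell types in the clotting genes' values was not tested.

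Of the 53 other clotting and fibrinolysis genes listed, 45 were tested, and 0 of 45 passed the adjusted threshold in edgeR. At an unadjusted p under 0.05, 1 of 45 was higher and 6 of 45 were lower in HFD, against 5.31% and 7.56% of all genes. DESeq2 called 4 lower (Proz, Kng1, Tgm2 and Serpinb2), against 2.87%. Among plasma clotting proteins, 13 of 19 passed the count filter, with 9 log2 fold changes below 0, 4 above and a median of -0.89, or -0.63 without CD replicates 3 and 4. Kng1, kininogen, the precursor of bradykinin, stood at 4.09, 4.59, 5.61 and 3.53 CPM in CD and at 2.77, 1.82, 1.45 and 1.94 CPM in HFD, without overlap (-1.16 ± 0.31, edgeR adjusted p = 0.250). F5, factor V, the cofactor of factor X, overlapped at 1.96 to 5.24 CPM in CD and 1.20 to 2.41 CPM in HFD (-0.89 ± 0.40, edgeR adjusted p = 0.389), and gave -0.41 without CD replicates 3 and 4.

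**Figure D5:**
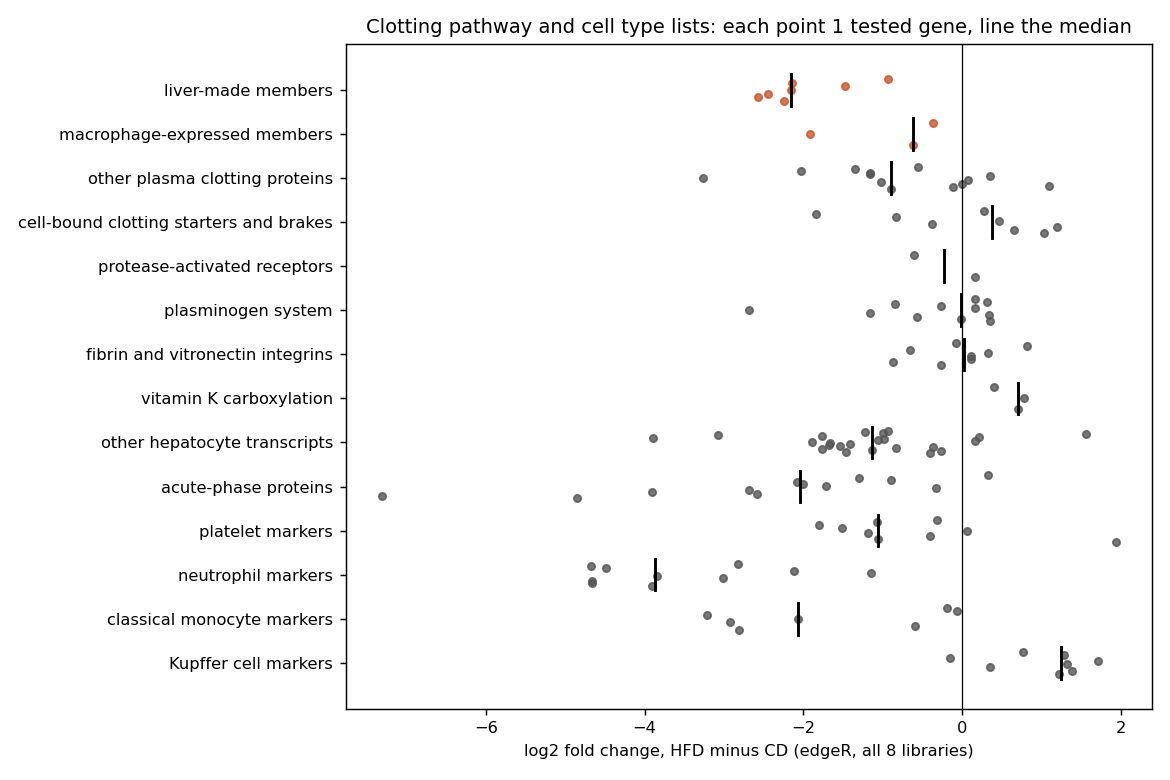
Log2 fold change, HFD minus CD, from edgeR on all 8 libraries (x axis) for each tested gene of the clotting and cell type lists (1 point per gene, y axis by list; black line, median). The liver-made clotting genes have a median of -2.16, other plasma clotting proteins -0.89, the plasminogen system -0.01 and Kupffer cell markers 1.26.

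Cell-bound starters and brakes of clotting had 5 log2 fold changes above 0 and 3 below among 8 tested, with a median of 0.38. Tissue factor, F3, the receptor of factor VII, stood at 18.1, 22.2, 20.0 and 22.1 CPM in CD and at 52.7, 87.2, 14.8 and 13.7 CPM in HFD. HFD replicates 1 and 2 were above, and HFD replicates 3 and 4 below, all CD libraries on the TMM scale (1.03 ± 0.54, edgeR adjusted p = 0.445). Scaled by library totals, HFD replicate 3 at 13.9 CPM lay just above CD replicate 3 at 13.7 CPM. The summed stellate cell and fibroblast markers were also higher in HFD replicates 1 and 2, at 672 and 665 CPM. They stood at 199 and 135 CPM in HFD replicates 3 and 4. In CD their sum ran from 31.6 to 273 CPM, while F3 stayed within 18.1 to 22.2 CPM. The part of such cells in the F3 values was not tested. Tgm2, tissue transglutaminase, stood at 300, 313, 983 and 975 CPM in CD and at 136, 210, 192 and 178 CPM in HFD, without overlap (-1.84 ± 0.48, edgeR adjusted p = 0.244), and its log2 fold change was -0.78 without CD replicates 3 and 4. Fgl2, a fibrinogen-like protein that can cleave prothrombin, also had groups apart, at 57.2 to 108 CPM in CD and 34.4 to 54.5 CPM in HFD (-0.83 ± 0.30, edgeR adjusted p = 0.312), and gave -0.39 without CD replicates 3 and 4. Thbd, thrombomodulin, which redirects thrombin to protein C, overlapped at 7.08 to 20.0 and 6.62 to 12.6 CPM (-0.38 ± 0.37, edgeR adjusted p = 0.678), and its sign turned, to 0.30, without CD replicates 3 and 4.

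The plasminogen system was spread around zero, with 5 log2 fold changes above 0, 6 below and a median of -0.01 among 11 tested. Serpinb2, an inhibitor of plasminogen activators that macrophages make, stood at 5.83, 6.43, 64.0 and 51.3 CPM in CD and at 3.49, 9.11, 4.39 and 2.80 CPM in HFD. It was high in CD replicates 3 and 4 only, and its log2 fold change of -2.68 ± 0.80 (edgeR adjusted p = 0.264) was -0.31 without them. Plau, urokinase, gave -0.01 ± 0.32 (edgeR adjusted p = 0.996). Plaur, the urokinase receptor, stood at 980 to 2210 CPM in CD and 464 to 1920 CPM in HFD (-0.57 ± 0.53, edgeR adjusted p = 0.658), and gave -0.02 without CD replicates 3 and 4.

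Integrin subunits that bind fibrin, fibrinogen or vitronectin had 4 log2 fold changes above 0 and 4 below, with a median of 0.02. Itgb2, the beta subunit of the leukocyte fibrinogen receptor, stood at 220 to 388 CPM in CD and 119 to 207 CPM in HFD (-0.87 ± 0.34, edgeR adjusted p = 0.328), and at -0.42 without CD replicates 3 and 4. Its partner Itgam, the CD11b of the sort, overlapped at 53.6 to 141 and 40.3 to 142 CPM (-0.26 ± 0.47, edgeR adjusted p = 0.838). Itgb5, a subunit of a vitronectin receptor, stood at 36.6 to 88.2 CPM in CD and 85.4 to 156 CPM in HFD (0.82 ± 0.36, edgeR adjusted p = 0.380). The alpha subunit Itgav gave 0.11 ± 0.29 and the beta subunit Itgb3 -0.65 ± 0.52 (edgeR adjusted p = 0.904 and 0.602). Without CD replicates 3 and 4 the log2 fold change was 0.39 for Itgam, 0.38 for Itgb5, 0.51 for Itgav and 0.29 for Itgb3.

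The protease-activated receptors, through which cells sense thrombin and factor X, were scarce. Of 4, 2 passed the count filter, F2r at 1.13 to 4.23 CPM (0.16 ± 0.48, edgeR adjusted p = 0.913; -0.44 without CD replicates 3 and 4) and F2rl2 at 0.509 CPM or less (-0.60 ± 1.23, edgeR adjusted p = 0.864). The genes of vitamin K carboxylation, which factors VII and X and prothrombin need to bind membranes, had 3 of 3 log2 fold changes above 0. Ggcx, the carboxylase, gave 0.71 ± 0.36 (edgeR adjusted p = 0.439), or 0.35 without CD replicates 3 and 4. Vkorc1, which recycles vitamin K, stood at 10.2 to 51.3 CPM in CD and at 30.6 to 71.0 CPM in HFD (0.78 ± 0.55, edgeR adjusted p = 0.557). It was lowest in CD replicates 3 and 4, the reverse of F10, and its log2 fold change was 0.06 without them. Vkorc1l1, the remaining gene, gave 0.40 ± 0.66 (edgeR adjusted p = 0.822), and -0.20 with a replicate block. It lay above the CD libraries, at 1.96 to 2.33 CPM, only in HFD replicate 1, at 7.45 CPM.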

How the data were processed

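The deposited table held, for 8 libraries and 42649 genes, raw read counts and FPKM, both made by the authors. Per the submitters' processing notes, the tools were HISAT2 2.0.4, StringTie 1.3.4d and cutadapt 1.9. The genome build is not given in the sources used here. Of the gene identifiers, 42502 were in GENCODE M21 (GRCm38) and 39410 had the same start and end there, 9 of the 10 clotting genes included; the end of Serpinc1 differed.

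The deposited counts were tested with edgeR 4.0.16 in R 4.3.3 (two-sided quasi-likelihood F test on diet alone, after filterByExpr and TMM), adjusted by Benjamini-Hochberg over 17367 genes at a threshold of 0.05. The procedure was tested on simulated data. Libraries came from separate mice. FPKM, as deposited, served for levels between genes, for ratios and for the limma alternatives. Neither molecular identifiers nor a strand step is described, so reads are of amplified cDNA and overlapping genes cannot be separated.

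The clotting genes and all lists were chosen with earlier results of these data known. Outside the set, genes were named by a rule: any list gene past the threshold or else the 2 of smallest p in each list, 17 clotting or marker genes fixed for every case (1 is not reported here), the nearest tested neighbours, and the 3 genes of most like profile to Fgb, F7, F10 and F13a1. Vkorc1l1 was named in addition, as the remaining gene of its list. Profiles were log2 CPM with a prior count of 2. Lists and set are described by counts and medians.

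Alternatives were no count filter, library totals or DESeq2 size factors, DESeq2 1.42.0, limma 3.58.1 on log2(FPKM + 1) and log2(FPKM + 0.1), a replicate block, each library left out, CD replicates 3 and 4 left out, and replicates 1 and 2 only. Replicates 3 and 4 only, and a term for numbers 1 and 2 against 3 and 4, were added after seeing the data. Same-number libraries of the diets had deviations that correlated at 0.110, 0.292, 0.220 and 0.183, each above 0.1, so a replicate block was run as an alternative; no label gives a pairing, and all main values are without the block. Libraries of other numbers on the same side of 1 and 2 against 3 and 4 correlated as much, at 0.160 to 0.318. The check thus shows that division and cannot tell whether libraries were also paired.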

Additional observations from a re-analysis of the deposited data

Results flagged for a closer look

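Of 136 groups of 4 libraries examined, over 68 genes, 4 had 1 library far from the other 3; chance gives this in about 5% of groups. Plg in HFD replicate 4 stood at 0.416 CPM, against 0.0843 to 0.0949 CPM in the other HFD libraries. It is the library that made the diets overlap for Plg on the TMM scale. The log2 fold change was -2.98 without it, and -1.61 without CD replicate 4, the highest CD library. Itgb5 in HFD replicate 1 stood at 156 CPM, against 85.4 to 97.0 CPM. Saa2 in HFD replicate 3 stood at 0.142 CPM, from 6 counts, with 0 in the other 3, so any count there would have been flagged. Reln, a stellate cell marker, stood at 0.443 CPM in HFD replicate 4, against 0.0738 to 0.119 CPM.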

How the results depend on the processing

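The signs of Fga, Fgb, Fgg, Vtn, F2, Plg, Serpinc1 and F10 were the same in 19 of 19 alternatives, that of F7 in 18 and that of F13a1 in 11. The median log2 fold change of the liver-made genes, -2.16, was -1.73 with library totals, -0.60 and -1.47 with limma on log2(FPKM + 1) and log2(FPKM + 0.1), -1.49 without CD replicates 3 and 4 and -1.58 on replicates 1 and 2. A pseudocount draws low genes towards 0. That of the macrophage-expressed genes, -0.62, was 0.04 without CD replicates 3 and 4, -0.17 on replicates 1 and 2 and -0.11 with library totals; the spread between replicates that these moves stay within is itself set by CD replicates 3 and 4. Library totals moved the median of all genes from 0.01 to 0.42 and the share of genes below 0 from 49.2% to 28.7%; relative to the median of all genes, the liver-made median was -2.17 with TMM and -2.15 with library totals, and the macrophage-expressed median -0.64 and -0.53. Genes called higher numbered 0, and 119 without a count filter, 143 with DESeq2, 179 with the term for numbers 1 and 2 against 3 and 4 and 2314 on replicates 3 and 4. Genes called lower numbered 1, and 296, 496, 177 and 3310 in the same order; the count was 0 with library totals, limma on log2(FPKM + 1), without CD replicates 3 and 4 or on replicates 1 and 2, and 0 to 1 when 1 library was left out. With the replicate block, 0 genes were called lower and the liver-made median was -2.18; F13a1 turned from -0.36 to 0.15. Pathway genes outside the set called numbered 0, and 1 without a filter, 4 with DESeq2 and 16 on replicates 3 and 4. The causes were not tested. Plg rests on the fewest counts, 4 to 39 per library.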

Other observations

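Peritoneal cavity macrophage markers, a list included because F5 and F10 are known transcripts of such cells, were scarce, at 17.8 to 23.8 CPM summed in CD and 17.9 to 19.7 CPM in HFD. Carcinoma markers summed to 5.81 to 15.2 CPM in CD and 3.05 to 5.81 CPM in HFD.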
